A study of Mus musculus with 3 samples.

Results

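The 34 genes described here encode parts of the lysosome and of the autophagy pathway, and they were taken by symbol from the 33696 genes listed in the count files of a mouse kidney single-cell RNA-seq study. They comprise 7 lysosomal proteases, 6 further lysosomal hydrolases, 5 lysosomal membrane or cholesterol-handling proteins, the cofactor genes Psap and Grn, 3 transcription factors of the TFEB family, 5 genes of autophagy cargo and membrane marking, and 6 genes of autophagosome initiation and conjugation. The list is one of symbols, with no threshold on a measured value. One library came from young male mice aged 3 to 4 months (written 3/4 in the labels) and marked as control, one from male mice aged 20 months given vehicle, and one from male mice aged 20 months given D+Q. D+Q is the usual abbreviation of dasatinib plus quercetin, a pair of compounds used to remove senescent cells, and the labels give no dose or schedule. The labels do not give the number of animals behind a library, the strain or any allele. With 1 library a group, a difference between libraries has no replicate check, so it describes those libraries and not age or treatment, and all intervals below cover counting error only.

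Lysosomes are acid compartments in which proteases, glycosidases and lipases break down material that arrives from endocytosis or from autophagy, the process that wraps cytoplasm and organelles in a double membrane and delivers them for breakdown. TFEB, TFE3 and MITF are related transcription factors that bind the E-box core CACGTG and switch on many lysosomal and autophagy genes, and mTORC1 at the lysosome surface keeps TFEB out of the nucleus when nutrients are plentiful. Proximal tubule cells take up filtered protein by endocytosis and are rich in lysosomes. Glb1 encodes the beta-galactosidase whose activity at raised pH is the classical stain for senescent cells.

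The promoters of some of these genes carry the E-box that the TFEB family binds, and 5 that bear 1 or more copies near the start site are shown. The promoter of Atg5, with 1 copy 14 bases before the start site, is not shown. Among RefSeq promoters on GRCm38.p6, each with 250 bases before and 50 after the start site, 27 of the 34 genes had an entry. CACGTG, a palindrome that reads alike on both strands, was in the promoter of 10 of those 27 genes, or 37.0%, and in that of 8.09% of all 27025 genes in the table. The longer TCACGTGA, which contains CACGTG, was in 4 of the 27 (14.8%, Ctsa, Ctsd, Gla and Mcoln1) against 1.12% of all genes. Each line below runs 5′ to 3′ from 120 bases before the start site to 20 bases from it on, with TCACGTGA in capitals where it occurs and otherwise CACGTG.
Ctsa, chr2:164833653-164833792, plus strand: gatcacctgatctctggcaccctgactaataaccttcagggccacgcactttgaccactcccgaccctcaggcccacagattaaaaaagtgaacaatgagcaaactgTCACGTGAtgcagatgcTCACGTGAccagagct
Ctsd, chr7:142387808-142387947, minus strand: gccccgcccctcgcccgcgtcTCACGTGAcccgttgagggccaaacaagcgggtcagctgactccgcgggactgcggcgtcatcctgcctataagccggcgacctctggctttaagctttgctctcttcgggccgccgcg
Lamp1, chr8:13159041-13159180, plus strand: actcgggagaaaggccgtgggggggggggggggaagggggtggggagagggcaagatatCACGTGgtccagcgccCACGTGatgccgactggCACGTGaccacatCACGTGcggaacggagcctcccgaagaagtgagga
Mcoln1, chr8:3500399-3500538, plus strand: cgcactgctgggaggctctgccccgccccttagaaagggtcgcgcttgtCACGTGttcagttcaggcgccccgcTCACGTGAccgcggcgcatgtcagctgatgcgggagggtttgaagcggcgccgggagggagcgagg
Glb1, chr9:114400958-114401097, plus strand: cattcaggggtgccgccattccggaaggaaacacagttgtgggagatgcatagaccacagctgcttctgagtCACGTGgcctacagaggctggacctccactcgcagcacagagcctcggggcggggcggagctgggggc
Lamp1 held 4 copies of CACGTG, whose first bases lay 61, 45, 28 and 15 bases before the start site. Glb1 held 1 copy, 48 bases before it. A match of these letters is a description of the window and does not show binding.

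The files held 8615 young, 6027 old vehicle and 8037 old D+Q barcodes with 24346733, 13944270 and 21058975 unique molecule counts, and 7734, 5701 and 7424 of these barcodes were kept as cells. Cells were clustered without the 34 genes and named from markers, and 8 named classes reached 30 cells in each of the libraries. Proximal tubule-like cells were most of them, with 4802, 3818 and 5040 cells and median depths of 2356, 1799 and 2301 counts. The 18 proximal tubule markers summed to between 31856 and 33219 CPM (a gene's counts over all counts of its class, scaled alike in every library) in that class, and to between 11709 and 22234 CPM in the other 7 classes, whose part in the values of those classes was not tested. Between 28 and 38 barcode sequences were shared by any 2 libraries. In proximal tubule-like cells the mitochondrial share of counts was 9.05% in young, 6.74% in old vehicle and 8.70% in old D+Q, and the nuclear RNA Malat1 stood at 174873, 145542 and 162607 CPM. Values below are given in the order young, old vehicle, old D+Q.

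In proximal tubule-like cells, Tfeb was the member whose level differed by at least 1.5-fold with an interval excluding 1, higher in old vehicle than in either of the other libraries. Most cathepsins and the membrane proteins Lamp1 and Lamp2 were lower in old vehicle than in young and in D+Q by less than 1.5-fold. Glb1, Lipa, Psap and Mitf were higher than in young in both old libraries, with intervals excluding 1. Npc1, Tfeb and Atg7 were higher in this way in old vehicle only, and Ctsd and Neu1 in D+Q only. Of all genes, 22.8% were higher than in young in this way in old vehicle and 17.2% in D+Q. Summed over the 34 genes, the level was 3219, 2988 and 3216 CPM. Counts per gene ran from 16 for Gla in old vehicle to 5229 for Lamp2 in young, and all 34 genes had at least 30 counts over the libraries. The counts are of 3′ ends and were not divided by transcript length, so levels of different genes are not ranked.

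**Figure D1:**
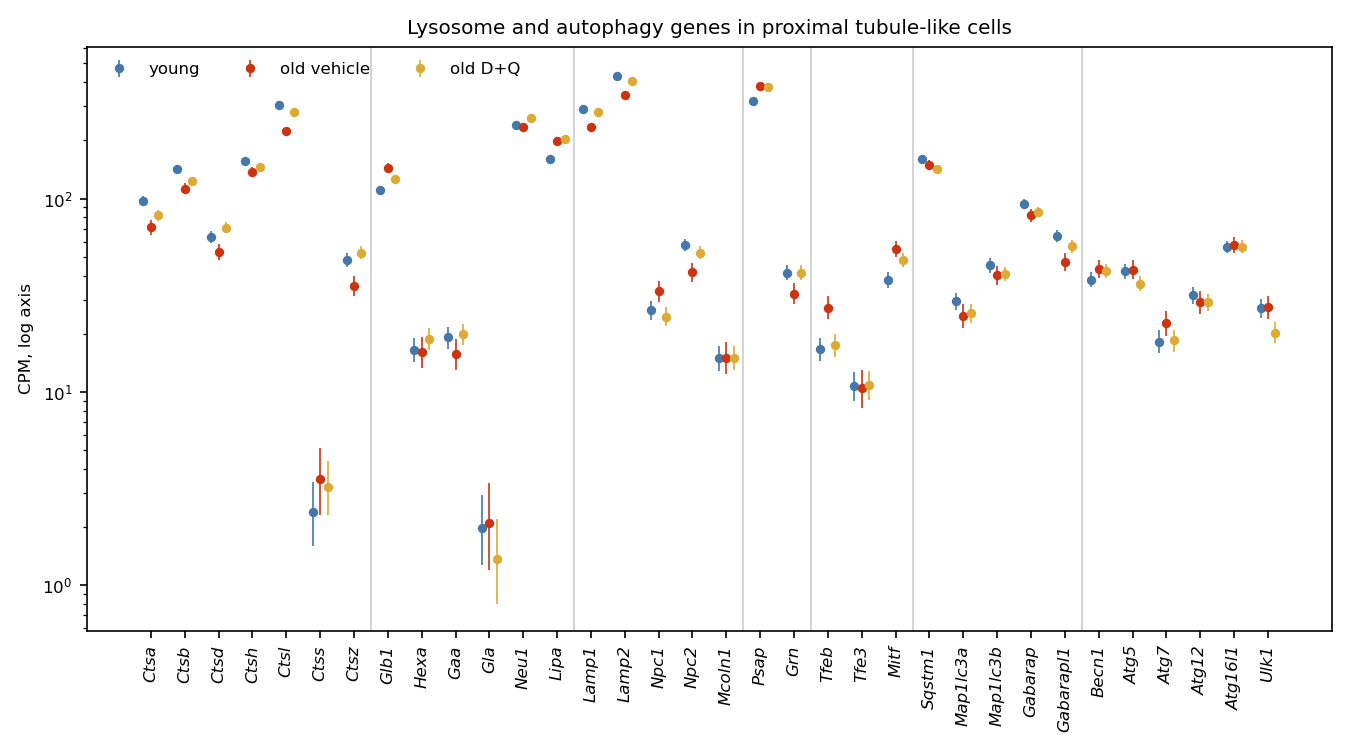
CPM of each of the 34 genes (log axis) in proximal tubule-like cells, with young in blue, old vehicle in red and old D+Q in yellow, and bars for exact 95% Poisson intervals. Grey lines separate the roles from proteases at the left to initiation and conjugation genes at the right, and Tfeb at 16.7, 27.3 and 17.4 CPM stands out among low genes with a red point above both others.

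The cathepsins are the proteases of the lysosome. Ctsl, a cysteine protease, stood at 305, 223 and 279.8 CPM, with a log2 ratio of old vehicle to young of -0.45 (95% interval -0.54 to -0.37) and of D+Q to old vehicle of 0.33 (0.25 to 0.41). Ctsa, the protective protein that holds beta-galactosidase and neuraminidase in a complex, stood at 97.6, 71.0 and 82.0 CPM, with ratios of -0.46 (-0.61 to -0.31) and 0.21 (0.06 to 0.36). Ctsz, a carboxypeptidase, stood at 48.0, 35.3 and 52.5 CPM, with ratios of -0.44 (-0.66 to -0.23) and 0.57 (0.37 to 0.78). All 3 were lowest in old vehicle. Ctsb was at 142, 113 and 123 CPM. Ctsd, the main aspartic protease, was at 63.1, 53.1 and 70.8 CPM, and Ctsh, an aminopeptidase, at 156, 137 and 145 CPM. These 3 were also lowest in old vehicle, and the old vehicle to young intervals of all 6 lay below 0. Ctss, the cysteine protease of macrophages and other antigen-presenting cells, was the exception, at 2.39, 3.53 and 3.23 CPM from 29, 27 and 40 counts, with intervals that include 0. The median log2 ratio of the 7 proteases was -0.33 for old vehicle against young and 0.21 for D+Q against old vehicle.

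The other hydrolases cut sugars and lipids. Glb1 stood at 110 CPM (104.6 to 117) in young, 144 CPM (135 to 152) in old vehicle and 126 CPM (119.8 to 132) in D+Q. Its log2 ratio was 0.38 (0.26 to 0.49) for old vehicle against young and -0.19 (-0.30 to -0.07) for D+Q against old vehicle. The D+Q level thus lay between those of the other libraries, with an interval that meets neither. Lipa, the acid lipase that frees cholesterol from its esters, stood at 161, 198 and 202 CPM, higher in both old libraries than in young by 0.30 (0.20 to 0.40) and 0.33 (0.24 to 0.41). Neu1, the sialidase, was at 240.3, 234 and 262 CPM. Hexa, a subunit of beta-hexosaminidase, was at 16.5, 16.1 and 18.9 CPM, and Gaa, the glycogen-degrading alpha-glucosidase, at 19.1, 15.7 and 19.8 CPM. For both, the old vehicle to young interval included 0. Gla, the alpha-galactosidase, was near the limit of these data at 1.98, 2.09 and 1.37 CPM from 24, 16 and 17 counts.

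Lamp1 and Lamp2 encode the abundant glycoproteins that line the inner face of the lysosomal membrane. Lamp1 stood at 291, 233 and 281 CPM, and Lamp2 at 432, 344 and 406 CPM. Both were lowest in old vehicle, with old vehicle to young ratios of -0.32 (-0.40 to -0.24) and -0.33 (-0.39 to -0.26). Npc1 and Npc2 hand cholesterol out of the lysosome, as a membrane transporter and a soluble carrier. Npc2 stood at 57.6, 41.7 and 52.6 CPM, with an old vehicle to young ratio of -0.47 (-0.66 to -0.27). Npc1 stood at 26.4, 33.2 and 24.5 CPM, with ratios of 0.33 (0.09 to 0.57) and -0.44 (-0.68 to -0.19). The 2 cholesterol exporters thus differed in opposite directions in each of these comparisons. Mcoln1, the lysosomal calcium channel, was at 15.02, 15.03 and 15.01 CPM, with an interval of the old vehicle to young ratio of -0.35 to 0.35. Psap, the precursor of the saposins that present lipids to lysosomal enzymes, stood at 321, 383 and 377 CPM and was higher in both old libraries than in young, by 0.25 (0.18 to 0.32) and 0.23 (0.17 to 0.29). Grn, the precursor of progranulin, stood at 41.4, 32.3 and 41.5 CPM and was lowest in old vehicle.

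Among the transcription factors, Tfeb had 202, 209 and 216 counts in proximal tubule-like cells, or 16.7 CPM (14.5 to 19.1), 27.3 CPM (23.7 to 31.3) and 17.4 CPM (15.2 to 19.9). Its log2 ratio was 0.71 (0.43 to 1.00) for old vehicle against young and -0.65 (-0.93 to -0.37) for D+Q against old vehicle. The young and D+Q levels did not differ beyond counting error, with a ratio of 0.06 (-0.22 to 0.35). Mitf stood at 37.9, 55.0 and 48.2 CPM, with ratios of 0.54 (0.34 to 0.73) and -0.19 (-0.37 to -0.01), and was higher in D+Q than in young by 0.35 (0.17 to 0.53). Tfe3 was at 10.7, 10.5 and 10.9 CPM, with intervals that include 0 in all 3 comparisons. Of the 10 genes with CACGTG in the promoter, 5 had a ratio below 0 for old vehicle against young, with a median of -0.12, and of the 17 genes without it 11 did, with a median of -0.04.

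Among the genes that act on the autophagosome itself, Sqstm1, the cargo receptor p62, was at 160.4, 150.1 and 142 CPM. The ubiquitin-like proteins that mark the autophagosome membrane were at 29.4, 24.8 and 25.5 CPM for Map1lc3a, at 45.2, 40.1 and 40.8 CPM for Map1lc3b, at 93.5, 82.1 and 85.7 CPM for Gabarap and at 64.3, 47.2 and 56.6 CPM for Gabarapl1. All 5 were highest in young, and Gabarapl1 had the widest distance from it, at -0.45 (-0.63 to -0.26) in old vehicle. Of these 5, only Gabarap and Gabarapl1 had an old vehicle to young interval below 0, beside 14.0% of all genes. For D+Q against young, Sqstm1, Gabarap and Gabarapl1 did, beside 14.8%. Both intervals of Map1lc3a and of Map1lc3b included 0. Becn1, which nucleates the membrane, was at 38.1, 43.4 and 42.3 CPM. The conjugation genes Atg5, Atg7, Atg12 and Atg16l1 were at 42.01, 43.0 and 36.4, at 18.2, 22.6 and 18.5, at 31.7, 29.15 and 29.05, and at 56.3, 57.8 and 56.5 CPM. Ulk1, the kinase that starts autophagy, was at 27.1, 27.5 and 20.3 CPM and was lowest in D+Q, with a ratio to old vehicle of -0.44 (-0.71 to -0.17). In D+Q against old vehicle, all 6 initiation and conjugation genes had ratios below 0, with a median of -0.14. The median over all genes, given below, was below 0 as well, and the share of all genes below 0 was not counted. Only the intervals of Atg5 and Ulk1 excluded 0, beside 17.9% of all genes lower in this way. Those of Becn1, Atg7, Atg12 and Atg16l1 included 0.

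**Figure D2:**
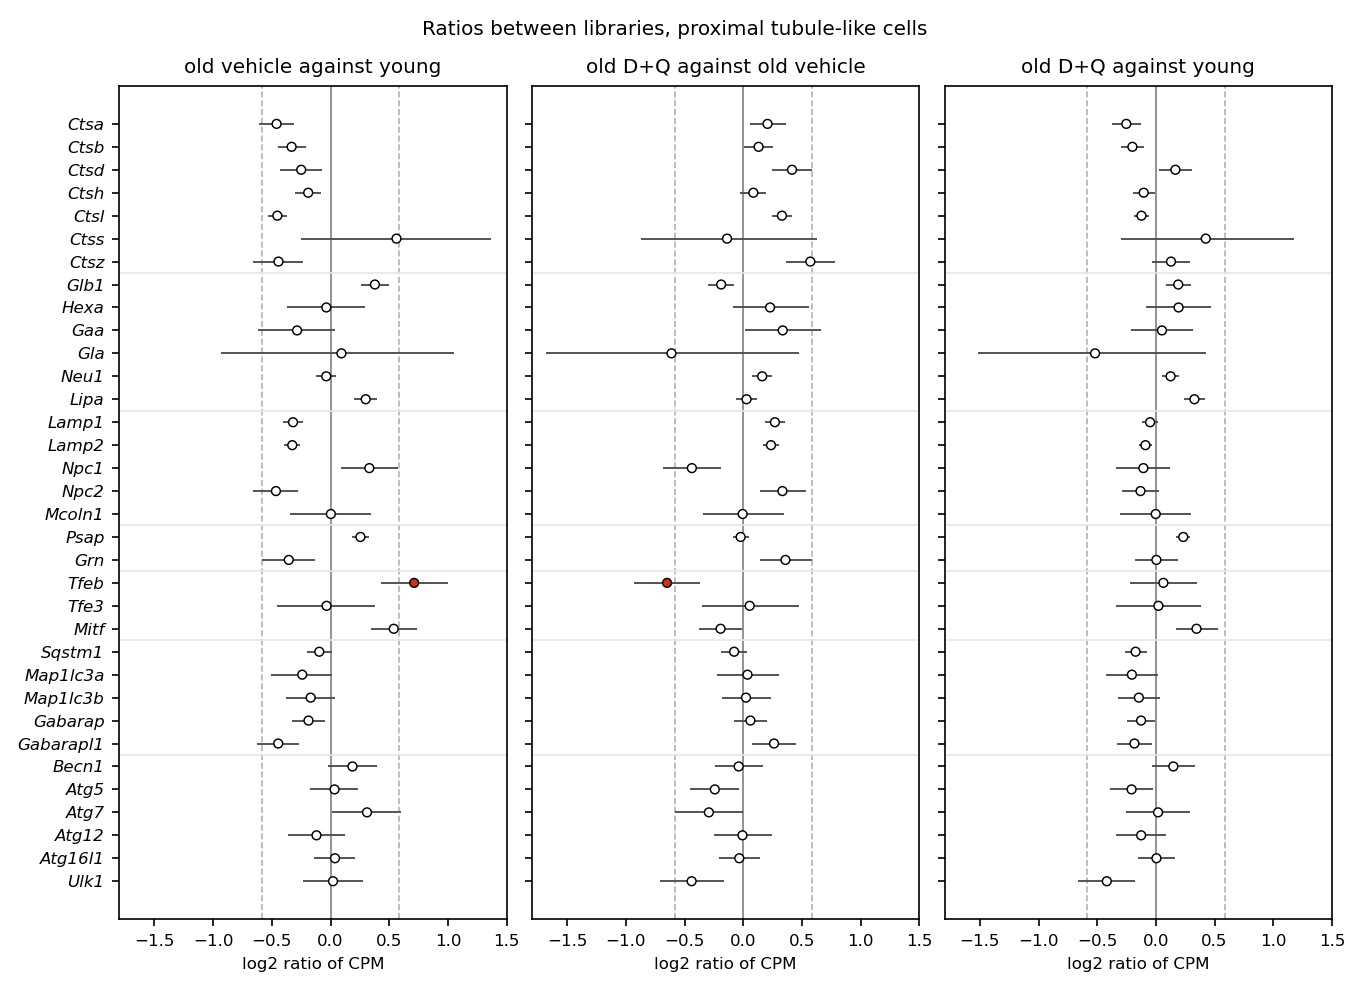
Log2 ratio of CPM between libraries for each of the 34 genes in proximal tubule-like cells, with exact 95% conditional binomial intervals, a solid line at 0 and dashed lines at 1.5-fold in either direction. Filled points, which are those of Tfeb at 0.71 and -0.65, lie past 1.5-fold with an interval excluding 0, and most other points lie between the dashed lines.

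Counted over the set, 1 of 34 genes was called higher in old vehicle than in young, where a call needs at least 1.5-fold and an exact interval excluding 1, beside 5.02% of the 14512 genes measured, and 0 were called lower beside 5.11%. In D+Q, 0 were called higher than in old vehicle beside 2.68% and 1 lower beside 2.65%. For D+Q against young 0 were called in either direction, beside 3.69% higher and 4.49% lower. These counts of 0 or 1 gene lie near or below the background and show no excess of called genes in the set. The median log2 ratios were -0.07, 0.03 and -0.03 for the 34 genes and 0.03, -0.04 and 0.01 for all genes. The comparisons share libraries, so that a high or low old vehicle level enters the first with one sign and the second with the other.

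Smaller differences were frequent in the deeply counted members. Of the 22 members with at least 1000 counts over the libraries, 12 were lower in old vehicle than in young at any fold with an interval excluding 1, beside 18.9% of the 5169 genes of that depth, and 4 were higher beside 43.5%. D+Q had 11 of the 22 higher than old vehicle, beside 14.7%, and 3 lower beside 34.5%. For D+Q against young 9 were lower beside 19.6% and 6 were higher beside 31.3%. The 12 lower in old vehicle were Ctsa, Ctsb, Ctsd, Ctsh, Ctsl, Ctsz, Lamp1, Lamp2, Npc2, Grn, Gabarap and Gabarapl1. These intervals hold no spread between animals.

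The direction of these differences moved with the length of the gene. Across the 34 genes, Spearman's rho between the genomic span in GENCODE M21 and the log2 ratio was 0.62 for old vehicle against young, and across the 14099 genes with a span it was 0.36. For D+Q against old vehicle the values were -0.52 and -0.27. These are descriptions across genes, which are not independent replicates and share the same libraries. The 17 members longer than the median span of 17.0 kb had a median old vehicle to young ratio of 0.04, beside 0.14 for all genes longer than that, and the 17 shorter members had -0.19, beside -0.12. Tfeb spans 55.4 kb, Mitf 214 kb and Glb1 73.8 kb, while Ctsa spans 8.16 kb and Gabarap 3.81 kb. Not all members followed this order. Lamp2, at 55.1 kb, was lower in old vehicle than in young, and Atg5, at 95.9 kb, had an interval that includes 0. The part of gene length, and of the mitochondrial and Malat1 levels given above, in the differences was not tested.

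Other genes of the pathway were described from 6 lists that hold no member, and all 140 of their genes were measured in proximal tubule-like cells. Of 35 other lysosomal hydrolases, 1 was called higher in old vehicle than in young and 0 lower. Dnase2a, which degrades DNA in the lysosome, stood at 7.02, 11.9 and 12.0 CPM, with a log2 ratio of 0.76 (0.32 to 1.21). Of 24 other membrane and sorting proteins, 2 were higher and 0 lower. One was Tpcn2, an endolysosomal cation channel, at 3.63, 5.75 and 6.70 CPM, with a ratio of 0.66 (0.03 to 1.30). The other was Laptm4b, chosen for mention after its values were seen, at 9.91, 15.2 and 13.4 CPM. Of 16 subunits and partners of the proton pump that acidifies the lysosome, 0 were called in either direction in any of the 3 comparisons. Of 17 genes of mTORC1 and lysosomal nutrient sensing, 1 was higher. Mtor, the kinase that holds TFEB in the cytoplasm, stood at 230.2, 363 and 238 CPM, with ratios of 0.66 (0.58 to 0.73) and -0.61 (-0.68 to -0.53). Its level had the same order over the libraries as that of Tfeb, and a link between the 2 was not tested. Among genes with at least 1000 counts, 43.5% were higher in old vehicle than in young at any fold with an interval excluding 1. In the same way 34.5% were lower in D+Q than in old vehicle. Of 40 other autophagy genes, 0 were called in old vehicle against young and 1 was lower in D+Q than in old vehicle, beside 2.65% of all genes. Wipi1, which binds the growing autophagosome membrane, stood at 43.5, 36.5 and 22.8 CPM, with a D+Q to old vehicle ratio of -0.68 (-0.92 to -0.43). Of 8 mitophagy genes, 2 were higher in old vehicle than in young, among them Fundc1, a mitophagy receptor chosen for mention after its values were seen, at 9.66, 14.9 and 13.9 CPM. The lists together thus had 6 genes higher and 0 lower in old vehicle than in young, read against the same 5.02% and 5.11% of all genes. For D+Q against young, 1 hydrolase and 1 membrane protein were higher, again Dnase2a and Tpcn2, and 2 autophagy genes were lower, beside 3.69% higher and 4.49% lower among all genes. The lower ones were Wipi1, at -0.93 (-1.14 to -0.72), and Calcoco1, at -0.71 (-0.96 to -0.46).

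Along the proximal tubule, the lysosomal genes were not even. Clusters rich in markers of the early segment S1 held 1451, 1079 and 1536 cells, and clusters rich in markers of the late segment S3 held 973, 837 and 789 cells. S1 clusters were those with over 5 times the S1 marker level over that of S3, and S3 clusters the reverse. Within each library, 32 of the 34 genes had at least 30 counts over both sets. Of these, 7 were at least 1.5-fold lower in S3-rich than in S1-rich clusters in all 3 libraries and 0 were higher, beside 7.67% lower and 10.1% higher among 9724 genes. The 7 were Ctsa, Ctsl, Ctsz, Hexa, Gaa, Lipa and Mitf.

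Lipa had the widest distance of the 7. It stood at 329 CPM in S1-rich and 24.1 CPM in S3-rich clusters of the young library, at 399.6 and 35.9 CPM in old vehicle, and at 340.01 and 41.2 CPM in D+Q. The log2 ratios were -3.76 (-4.15 to -3.40), -3.47 (-3.86 to -3.12) and -3.04 (-3.38 to -2.73), so the S3-rich level was lower in every library by a margin well past counting error. Mitf had ratios of -1.50, -1.12 and -1.31, Hexa of -1.42, -1.87 and -1.29, and Ctsl of -1.14, -0.79 and -0.76. The genes Ctsh, Glb1, Psap, Sqstm1, Map1lc3a, Becn1, Atg5 and Atg12 had ratios above 0 in all 3 libraries. Examples stood at 0.48, 0.09 and 0.37 for Glb1, at 0.26, 0.57 and 0.30 for Psap and at 0.43, 0.21 and 0.25 for Sqstm1. Of the genes listed with ratios above 0, only Psap had intervals above 0 in all 3 libraries. The median ratio over all genes measured was above 0 as well, at 0.12, 0.16 and 0.10.

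**Figure D3:**
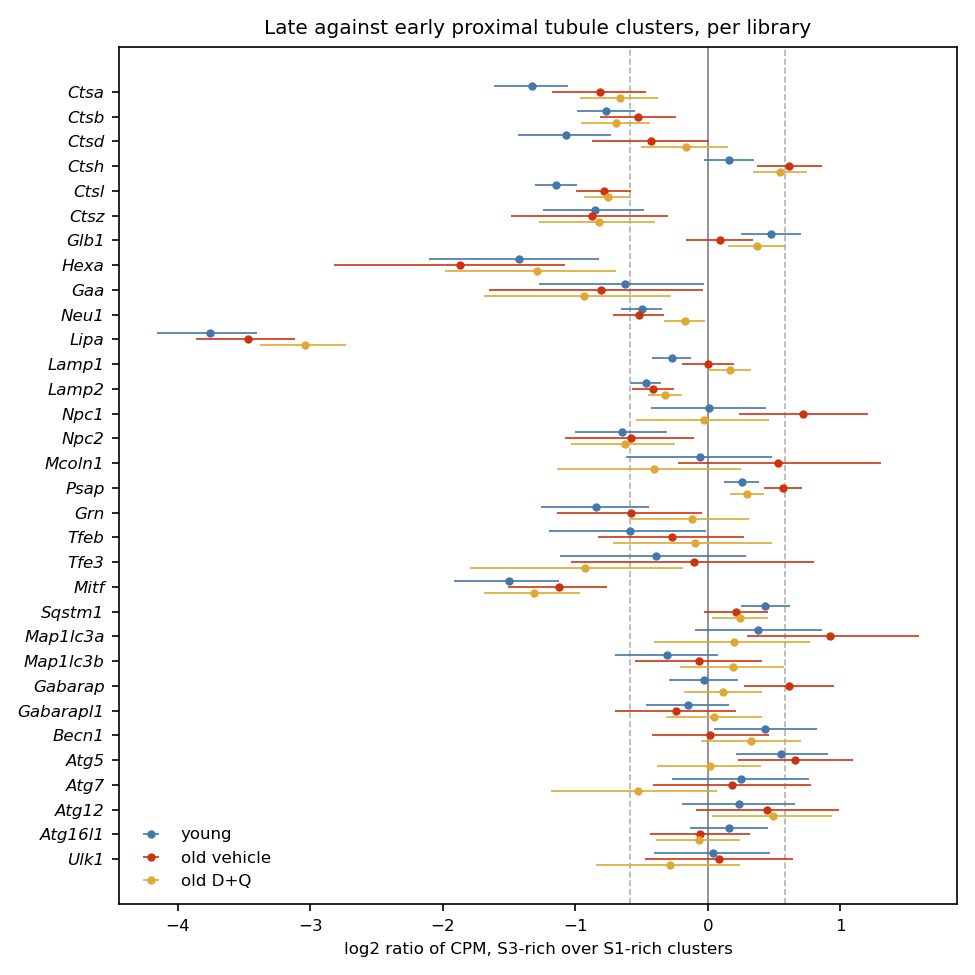
Log2 ratio of CPM in S3-rich over S1-rich proximal tubule-like clusters for 32 genes in young (blue), old vehicle (red) and old D+Q (yellow), with exact 95% intervals and dashed lines at 1.5-fold, leaving out Gla and Ctss for low counts. Lipa lies far to the left in all 3 libraries, at -3.76, -3.47 and -3.04, and the other 6 genes named above lie left of the dashed line in all 3.

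The libraries also differed in their mix of proximal tubule clusters. Cluster 0 held 376 young, 1630 old vehicle and 1793 D+Q cells, and cluster 3 held 1523, 81 and 368. Cluster 5, with a median mitochondrial share of 38.7%, held 479, 191 and 554 cells, or 9.98%, 5.00% and 11.0% of the class. Without it the old vehicle to young log2 ratios were -0.42 for Ctsa, -0.40 for Ctsl, -0.50 for Ctsz and -0.22 for Lamp1. The D+Q to old vehicle ratios were then 0.15, 0.24, 0.57 and 0.12, and that of Ctsb was 0.00, against 0.13 with cluster 5. Within S1-rich clusters alone, Ctsa stood at 133, 96.6 and 102 CPM and Ctsl at 375, 268 and 284 CPM, both lower in old vehicle than in young, with log2 ratios of -0.45 (-0.70 to -0.22) and -0.48 (-0.63 to -0.34). Within S3-rich clusters Ctsa stood at 52.8, 54.9 and 64.5 CPM and Ctsl at 169.7, 155 and 168 CPM, with intervals of the old vehicle to young ratio of -0.33 to 0.44 and -0.35 to 0.09. Whether the segments differ in this respect was not tested. Tfeb was higher in old vehicle than in young in both, at 21.7, 32.8 and 19.3 CPM in S1-rich and 14.3, 27.2 and 17.95 CPM in S3-rich clusters. Mitf was too, at 74.1, 102 and 95.7 CPM and at 26.0, 46.7 and 38.3 CPM. Psap in S3-rich clusters stood at 339, 508 and 395 CPM, with an old vehicle to young ratio of 0.59 (0.45 to 0.72), and Npc1 there at 30.6, 47.8 and 25.7 CPM, with 0.65 (0.19 to 1.10) and, for D+Q against old vehicle, -0.89 (-1.42 to -0.39).

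Across cell classes, the summed level of the 34 genes ran from 2752 CPM in intercalated cell-like cells of D+Q to 3818 CPM in the D+Q class of connecting tubule and principal cell-like identity. Proximal tubule markers were also counted in the other classes, at the levels given above. Their part in this range was not tested. For 10 genes the highest class was the same in all 3 libraries, and for 24 it varied. Ctsd and Lamp1 were highest in the connecting tubule and principal cell-like class in every library. Their interval against the next class excluded 0 for Ctsd in old vehicle and D+Q, and for Lamp1 in D+Q only. That class holds a cluster with a high mitochondrial share, described below. Ctss was highest in leukocyte-like cells, at 124, 143 and 110 CPM from 35, 34 and 29 counts, beside 2.39, 3.53 and 3.23 CPM in proximal tubule-like cells. After thinning every cell to 1000 counts, 11.7%, 8.97% and 12.8% of leukocyte-like cells and 0.312%, 0.314% and 0.476% of proximal tubule-like cells had a Ctss count. Before thinning the shares were 29.9%, 19.2% and 20.5% against 0.541%, 0.681% and 0.794%. The 24 leukocyte markers summed to 120.3, 233 and 165 CPM in proximal tubule-like cells. Ctsh and Atg5 were also highest in leukocyte-like cells in every library, at 213, 169 and 175 CPM and at 63.8, 59.0 and 49.5 CPM. Against the next class, the interval excluded 0 for Ctss in all 3 libraries, for Ctsh in young only and for Atg5 in none.

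Stromal and mural-like cells had the highest Ctsl, Hexa, Gaa and Lamp2 in every library, but against the next class the interval excluded 0 only for Gaa in D+Q. Hexa stood at 50.2, 46.4 and 61.1 CPM there, 1.63, 1.61 and 1.72 higher on the log2 scale than in proximal tubule-like cells, and Gaa at 38.3, 87.0 and 83.7 CPM. For Ctsl (339, 319 and 287 CPM) and Lamp2 (439.9, 429 and 432 CPM) the difference from proximal tubule-like cells did not pass 1.5-fold in any library. Neu1 was lower in this class than in proximal tubule-like cells in every library, at 69.3, 69.6 and 72.4 CPM. Of 33 members measured in each library, 8, 9 and 8 were at least 1.5-fold higher in stromal and mural-like than in proximal tubule-like cells, beside 23.5%, 17.2% and 24.1% of genes, and 4, 3 and 3 were lower, beside 15.5%, 11.9% and 16.9%.

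Mitf was lowest in proximal tubule-like cells among the 8 classes in every library, at 37.9, 55.0 and 48.2 CPM. In other tubule classes it stood at 197, 227 and 181 CPM (thick ascending limb-like), 229, 195 and 241 CPM (distal convoluted tubule-like) and 158, 126 and 169 CPM (intercalated cell-like). Stromal and mural-like cells held 182, 179.9 and 181 CPM, and endothelial-like cells 88.4, 123 and 103 CPM. In these 5 classes the level was at least 1.5-fold above that of proximal tubule-like cells in every library. Tfeb and Tfe3 were both higher in endothelial-like than in proximal tubule-like cells in every library, at 30.5, 44.5 and 41.9 CPM and at 16.2, 23.1 and 20.9 CPM. Of all members, 5 of 34, 6 of 33 and 6 of 33 were higher in endothelial-like cells, beside 24.8%, 22.5% and 24.1% of genes. Becn1 was higher than in proximal tubule-like cells in thick ascending limb-like cells, at 59.1, 85.6 and 103 CPM, and in the distal convoluted tubule-like class, at 108, 80.9 and 116 CPM. Lipa was the one gene with its highest level in proximal tubule-like cells in every library, but its interval against the next class included 0 in all 3.

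**Figure D4:**
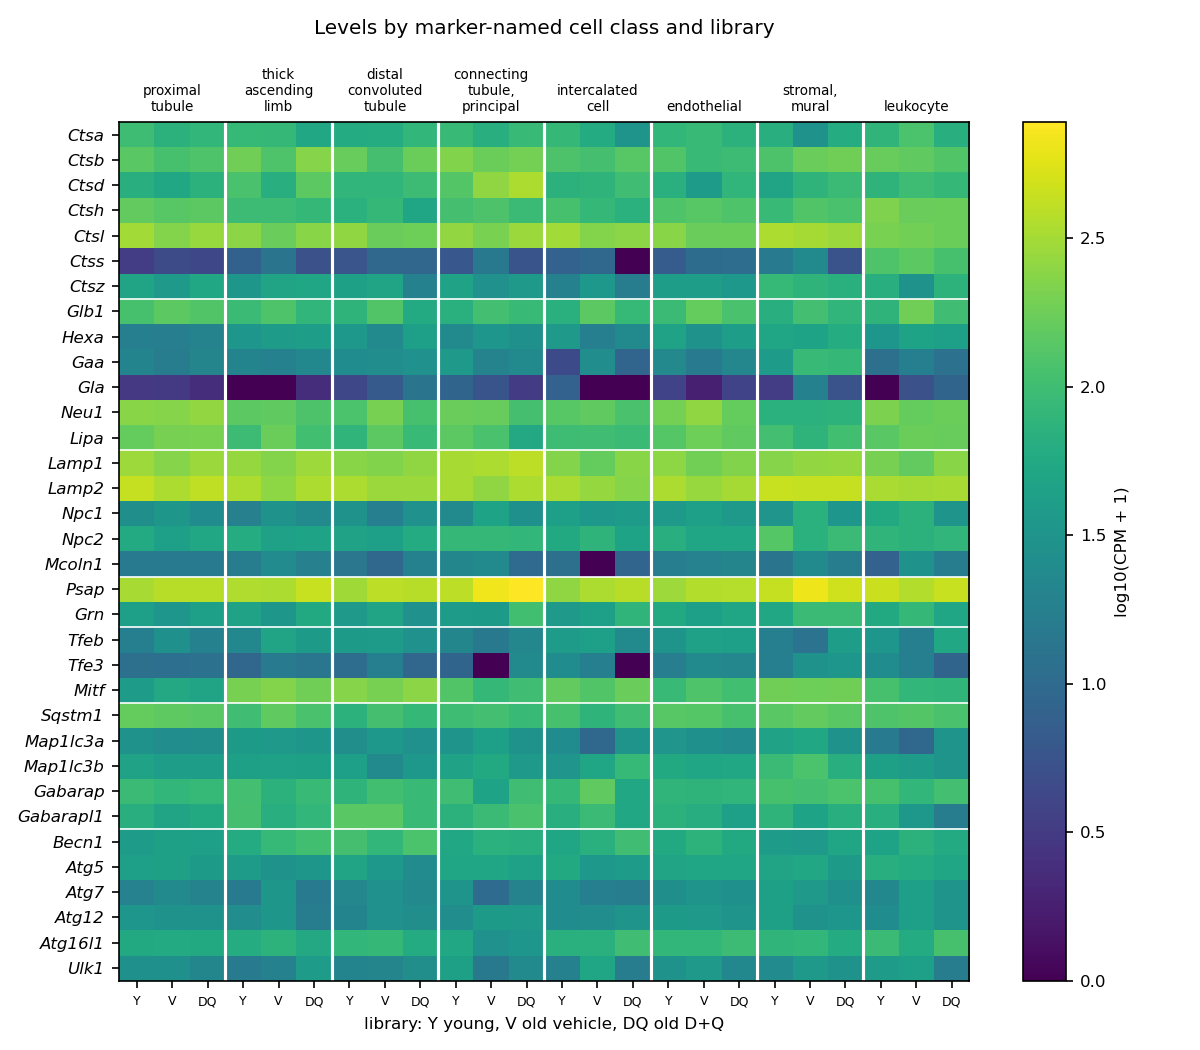
Level of each of the 34 genes as log10(CPM + 1) in 8 marker-named classes, with 3 columns a class for young (Y), old vehicle (V) and old D+Q (DQ), and white lines between classes and roles. The Ctss row is bright in leukocyte-like cells, where it holds 124, 143 and 110 CPM, and the Mitf row is dark in proximal tubule-like cells.

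Glb1 had its highest level in old vehicle in all 8 classes. This order did not hold in every part of the proximal tubule-like class. In S1-rich clusters Glb1 stood at 89.7, 130 and 114 CPM. In S3-rich clusters it stood at 125, 139 and 147 CPM, highest in D+Q. In leukocyte-like cells it stood at 74.4, 181 and 99.0 CPM from 21, 43 and 26 counts, with a log2 ratio of old vehicle to young of 1.27 (0.50 to 2.11) and of D+Q to old vehicle of -0.86 (-1.63 to -0.14). In endothelial-like cells it stood at 91.6, 159.9 and 115 CPM, with an old vehicle to young ratio of 0.80 (0.51 to 1.09) and a D+Q level between the others. The distal convoluted tubule-like level was 74.1, 126 and 57.3 CPM, and it was at 66.7, 143 and 84.6 CPM in intercalated cell-like cells. These 4 classes had an old vehicle to young ratio past 1.5-fold with an interval excluding 1. The levels were 92.0, 124 and 79.2 CPM in thick ascending limb-like, 67.9, 106 and 87.4 CPM in connecting tubule and principal cell-like and 64.5, 104.4 and 79.2 CPM in stromal and mural-like cells. Of the 18 members measured in every class, Glb1 alone had 1 library highest in all 8, as had 2.17% of 3225 genes for old vehicle, 0.744% for young and 0.589% for D+Q. It was the same in 8 of 8 classes with totals that leave out mitochondrially encoded genes and with median-of-ratios scaling, and in 7 of 8 with a marker gate on each cell. Tmppe, a gene on the same strand that overlaps Glb1, had 0 counts in proximal tubule-like cells. After thinning every cell to 1000 counts, the share of cells with a Glb1 count was highest in old vehicle in 7 of the 8 classes, at 9.87%, 13.0% and 11.6% in proximal tubule-like cells, but not in thick ascending limb-like cells, at 9.34%, 8.97% and 7.12%. Before thinning the shares were 23.0%, 23.4% and 25.2% in the first of these and 21.2%, 19.9% and 15.2% in the second. All classes of a group came from 1 library, so the 8 classes are not 8 replicates. The part of proximal tubule transcripts in the Glb1 values of the other classes was not tested.

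Ctsd was highest in D+Q in 7 of 8 classes, and in 6 of 8 with a mitochondrial limit of 25%. Among the other members measured in every class, Ctsl was highest in young in 7 of 8. Lamp1 was highest in D+Q in 6 of 8, and Lamp2 and Gabarapl1 in young in 6 of 8. The share of all genes at 7 of 8 classes was not counted. The connecting tubule and principal cell-like level of Ctsd was 131, 258 and 345 CPM, with an old vehicle to young ratio of 0.98 (0.41 to 1.55) and a D+Q to young ratio of 1.39 (0.94 to 1.88). This class joined cluster 13, with a median mitochondrial share of 6.20% and 124, 45 and 92 cells, and cluster 20, with 37.9% and 27, 40 and 81 cells. Within cluster 13 Ctsd stood at 85.9, 119.8 and 97.2 CPM with intervals that include 0, and within cluster 20 at 300.4, 419 and 589.8 CPM, with a D+Q to young ratio of 0.95 (0.35 to 1.65). In thick ascending limb-like cells it was lowest in old vehicle, at 114, 65.0 and 146 CPM. That class joined cluster 9, with a median mitochondrial share of 7.34% and 297, 144 and 244 cells, and cluster 18, with 43.0% and 67, 12 and 79 cells. Within cluster 9 Ctsd stood at 88.5, 60.2 and 103 CPM, with an old vehicle to young ratio of -0.53 (-1.38 to 0.20) that was not called, and within cluster 18 it had 35, 3 and 46 counts. In endothelial-like cells it was lowest in old vehicle too, at 67.1, 37.4 and 78.2 CPM. That class joined cluster 8, with 369, 155 and 274 cells, and cluster 11, with 236, 185 and 161 cells, and Ctsd had old vehicle to young ratios of -0.34 (-1.12 to 0.34) in cluster 8 and -1.06 (-1.81 to -0.40) in cluster 11.

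**Figure D5:**
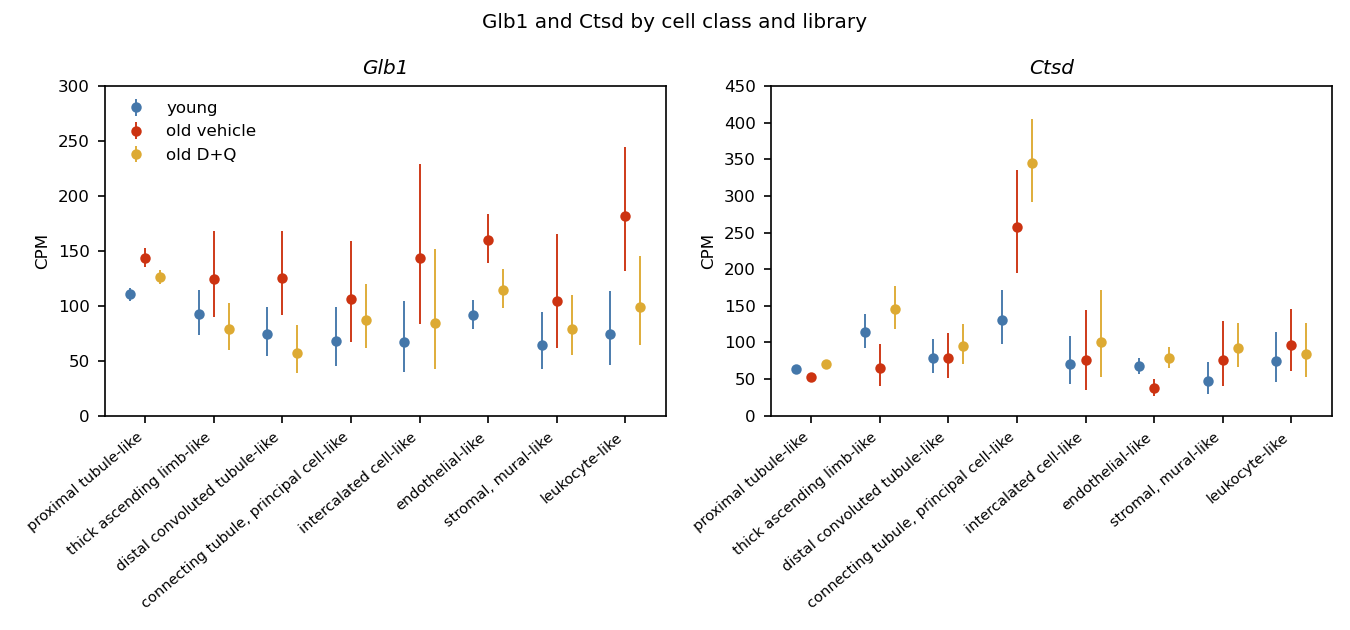
CPM of Glb1 (left) and Ctsd (right) in 8 marker-named classes in young (blue), old vehicle (red) and old D+Q (yellow), with exact 95% Poisson intervals. The red point of Glb1 is the highest of the 3 in every class, at 181 CPM in leukocyte-like cells, and the yellow point of Ctsd is the highest in 7 of 8, at 345 CPM in the connecting tubule and principal cell-like class.

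In thick ascending limb-like cells, which reabsorb salt in the loop of Henle, 3 of 31 members were called higher in old vehicle than in young, beside 9.56% of genes, and 2 lower, beside 2.77%. The higher ones were Tfeb (21.6, 47.2 and 36.8 CPM), Lipa (95.4, 174 and 103 CPM) and Sqstm1 (98.9, 154 and 113 CPM), and the lower ones Ctsd and Gabarapl1 (108, 65.0 and 80.6 CPM). Relative to old vehicle, 2 were higher in D+Q, beside 3.40%, and 2 lower, beside 9.11%. Ctsb at 185, 124 and 231 CPM and Ctsd were the higher ones, and Lipa and Glb1 the lower. Relative to young, 2 were higher in D+Q, beside 4.01%, Ulk1 at 1.34 (0.37 to 2.45) and Becn1 at 0.80 (0.27 to 1.35), and 1 was lower, beside 3.56%, Ctsa at -0.69 (-1.31 to -0.12). The mitochondrial share of counts in this class was 14.7%, 8.83% and 15.2%, and its high-mitochondrial cluster 18 held 12 old vehicle cells. Within cluster 9 alone the old vehicle to young ratios were 0.72 (0.20 to 1.22) for Lipa, 0.69 (0.13 to 1.23) for Sqstm1 and 1.13 (0.01 to 2.24) for Tfeb, while the interval of Gabarapl1, -1.54 to 0.07, included 0. Between D+Q and old vehicle in cluster 9, the intervals of Ctsb (0.12 to 1.29) and Lipa (-1.45 to -0.32) excluded 0 and that of Glb1 (-1.29 to 0.04) did not.

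Distal convoluted tubule-like cells, the site of thiazide-sensitive salt uptake, had 3 of 30 members called higher in old vehicle than in young, beside 10.3%, and 0 lower, beside 2.85%. These were Lipa (77.3, 145 and 90.8 CPM), Glb1 and Neu1 (116, 195 and 111 CPM). Relative to old vehicle, 1 was higher in D+Q, beside 3.54%, and 5 were lower, beside 9.75%. Ctsb was the higher one, at 0.65 (0.10 to 1.24), and the 4 lower ones with the largest ratios were Ctsz at -1.38 (-2.76 to -0.17), Glb1 at -1.12 (-1.86 to -0.43), Neu1 at -0.82 (-1.35 to -0.29) and Gabarapl1 at -0.68 (-1.30 to -0.07). Relative to young, 0 were higher in D+Q, beside 4.39%, and 3 lower, beside 3.44%, namely Ctsz from 27 against 9 counts, Atg5 from 30 against 12 and Gabarapl1 from 87 against 44.

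Connecting tubule and principal cell-like cells, which set the final salt and water balance, had 2 of 26 members called higher in old vehicle than in young, beside 4.39%, and 1 lower, beside 3.75%. Besides Ctsd, the higher one was Psap, at 399.9, 668 and 777 CPM. Within cluster 13 Psap stood at 251, 385 and 343 CPM and within cluster 20 at 961, 999 and 1207 CPM. The lower one was Gabarap, at 100.6, 46.1 and 98.9 CPM from 40, 10 and 43 counts. Relative to old vehicle, 2 were higher in D+Q, beside 2.62%, Grn at 37.7, 36.9 and 104 CPM and Gabarap, and 1 was lower, beside 6.01%, Lipa at 146, 115 and 55.2 CPM. Relative to young, 4 were higher in D+Q, beside 6.44%, and 2 lower, beside 9.33%. The higher were Grn at 1.42 (0.59 to 2.41), Ctsd, Psap at 0.96 (0.68 to 1.24) and Gabarapl1 at 0.70 (0.01 to 1.43), and the lower were Lipa at -1.38 (-2.15 to -0.69) and Neu1 at -0.66 (-1.23 to -0.10). Within cluster 20 alone the D+Q to young ratio of Psap was 0.32 (-0.04 to 0.71) and that of Gabarapl1 0.04 (-0.87 to 1.11), and within cluster 13 they were 0.45 (-0.03 to 0.92) and 0.44 (-0.72 to 1.59).

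Intercalated cell-like cells numbered 100, 43 and 49. In them 1 of 18 members was called higher in old vehicle than in young, Glb1, beside 9.72%, and 0 lower, beside 3.20%. Relative to old vehicle, 0 were higher in D+Q, beside 2.35%, and 1 was lower, beside 5.86%, Gabarap from 24, 18 and 7 counts. D+Q set against young gave 0 calls in either direction, beside 4.93% and 2.60%.

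In endothelial-like cells, with 605, 340 and 435 cells in a mix of clusters 8 and 11 that differed between libraries, 1 of 33 members was called higher in old vehicle than in young, Glb1, beside 7.41%, and 2 lower, beside 4.48%. These were Ctsd, at -0.83 (-1.35 to -0.36), and Hexa, at 44.9, 28.6 and 41.2 CPM. Relative to old vehicle, 1 was higher in D+Q, beside 5.02%, Ctsd at 1.06 (0.56 to 1.59), and 1 lower, beside 6.71%, Neu1 at 192, 255 and 159.9 CPM. Relative to young, 0 were higher in D+Q, beside 3.71%, and 1 was lower, beside 3.98%, Gabarapl1 at 70.8, 62.0 and 41.9 CPM. Within both clusters the intervals excluded 0 for Glb1 between old vehicle and young (0.18 to 1.20 and 0.45 to 1.19), for Neu1 between D+Q and old vehicle (-1.01 to -0.20 and -1.05 to -0.37) and for Gabarapl1 between D+Q and young (-1.39 to -0.06 and -1.42 to -0.17). Hexa was lower in old vehicle than in young in cluster 8, at -1.39 (-3.01 to -0.26), and had an interval of -1.11 to 0.27 in cluster 11.

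Stromal and mural-like cells had 2 of 28 members called higher in old vehicle than in young, beside 4.60%, and 1 lower, beside 3.05%. Gaa and Psap (430.3, 656 and 479.6 CPM) were the higher ones and Npc2 (134, 69.6 and 92.8 CPM) the lower. D+Q set against old vehicle gave 0 calls in either direction, beside 3.49% and 4.10%. Relative to young, 4 were higher in D+Q, beside 4.75%, and 0 lower, beside 4.78%. The 4 were Gaa at 1.10 (0.25 to 2.07), Ctsd at 0.94 (0.15 to 1.81), Grn at 0.80 (0.04 to 1.64) and Ctsb at 0.59 (0.07 to 1.14).

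Leukocyte-like cells, with 77, 78 and 78 cells, had 1 of 24 members called higher in old vehicle than in young, Glb1, beside 5.94%, and 0 lower, beside 4.06%. Relative to old vehicle, 1 was higher in D+Q, beside 4.68%, Lamp1 at 198, 156 and 239.8 CPM, and 1 lower, beside 4.66%, Glb1. Relative to young, 0 were higher in D+Q, beside 4.33%, and 1 was lower, beside 3.32%, Gabarapl1 from 18, 8 and 4 counts. In the small classes a call can rest on as few as 4 counts in a library, and 1 member is a large share of those measured.

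Without a stated use of strand in counting, reads from a gene and from an overlapping gene on the other strand cannot be told apart, and 12 members overlap such a gene. Those with the most counts in proximal tubule-like cells were Zcchc14 beside Map1lc3b, with 1014, 793 and 975 counts, Grtp1 beside Lamp1, with 865, 524 and 721, and Mrnip beside Sqstm1, with 516, 388 and 446. Tfeb and Mitf are not among them.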

How the data were processed

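The authors deposited, per the file headers and values, a matrix of whole-number counts of unique molecules per gene and cell barcode for each of 3 MobiCube 3′ libraries. GRCm39 and mm10 are named, with no role, per the submitters' processing notes, while no aligner, counter or strand setting was found in those notes, the labels or the file headers. Barcodes with over 50% mitochondrial counts or under 200 genes were left out, and so were those with the highest doublet scores at 0.8% per 1000 barcodes, because automatic calling marked only 2, 0 and 1 barcodes. Cells were clustered without the 34 genes (scanpy 1.11.5, 2000 variable genes, 30 components, Leiden resolution 1) and named from marker lists. For every class, a library's counts were added up per gene and scaled by the class total to CPM. Intervals are exact at 95%: Poisson for levels and conditional binomial for ratios (scipy 1.17.1). The code for the ratio intervals was checked on simulated Poisson counts. These follow the model the intervals assume and hold no spread between cells or animals, so they cannot test it on these data. In comparisons between libraries within a class, a gene was measured with at least 30 counts over all 3 libraries. A ratio of 2 libraries can therefore rest on fewer than 30 counts. Ratios used 0.5 added counts. No test between groups was made. All members are given by role. Pathway genes are named by the 2 largest called ratios in each direction per comparison over all lists, plus those said to be chosen later, and other classes by up to 4. Members and lists were chosen with earlier results of these data known, and the naming limits and segment sets after the data were seen. Other scalings (edgeR 4.0.16 TMM, median of ratios), filters and class definitions were tried. RefSeq promoters are on GRCm38.p6, and no coordinates of the files were used. The values of 1 pathway gene are not reported here.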

Additional observations from a re-analysis of the deposited data

Results flagged for a closer look

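For 3 genes, calls in different classes of the same comparison had opposite signs, and the difference between classes was not tested. Ctsd, the aspartic protease, had a log2 ratio of old vehicle to young of -0.78 in thick ascending limb-like and -0.83 in endothelial-like cells, and of 0.98 in the connecting tubule and principal cell-like class. Gabarap had a log2 ratio of D+Q to old vehicle of 1.05 in that class, from 10 and 43 counts, and of -1.44 in intercalated cell-like cells, from 18 and 7 counts. Gabarapl1 had a log2 ratio of D+Q to young of 0.70 in the connecting tubule and principal cell-like class, of -0.68 in the distal convoluted tubule-like class, of -0.75 in endothelial-like and of -1.94 in leukocyte-like cells, the last from 18 and 4 counts. In the connecting tubule and principal cell-like class, cluster 20, with a median mitochondrial share of 37.9%, held 27, 40 and 81 of the cells, and its part in these values was not tested. The thick ascending limb-like class holds such a cluster too, cluster 18 at 43.0% with 67, 12 and 79 cells, and without it the Ctsd ratio was -0.53 (-1.38 to 0.20). The endothelial-like ratio was -0.34 (-1.12 to 0.34) in cluster 8 and -1.06 (-1.81 to -0.40) in cluster 11.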

How the results depend on the processing

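Of the main values and counts, 132 of those recomputed under another setting stayed near the reported value and 18 moved; none reversed. Members higher in old vehicle than in young numbered 2 (Ctss added) with no mitochondrial limit, with doublets kept and with a marker gate on each cell, and 4 in S3-rich clusters only. Members lower there numbered 3 in clusters holding at least 10% of the class in every library, and 1 each in S1-rich and S3-rich clusters only. For D+Q against old vehicle, 1 was higher with TMM scaling, median-of-ratios scaling, totals without mitochondrially encoded genes, each library clustered alone and a mean over cells, in each case Ctsz, and 2 in the clusters shared at 10%. Lower ones numbered 0 in all kept cells, 3 in the clusters shared at 10% and 3 in S3-rich clusters. For D+Q against young, 2 were higher in S3-rich clusters. Members highest in leukocyte-like cells in every library numbered 1 with the marker gate, against 3, and with each library clustered alone only the young library had a leukocyte class, so that setting gave no value. Tfeb kept its direction throughout but was not called in all kept cells (0.57 and -0.43) or, for D+Q against old vehicle, in S3-rich clusters (-0.59). The cause of these moves was not tested. The segment settings and the class counts of Glb1 and Ctsd were chosen after the data were seen. No paired analysis was possible because each group is 1 library. Nothing here separates age or treatment from the library, and small classes limit each ratio to few counts.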
